A study of Gallus gallus with 6 samples.

Results

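The genes described are 9 members of the piRNA pathway in chicken primordial germ cells (PGCs) grown in culture, the cells of the embryo that give rise to eggs and sperm. They were chosen as rows of the gene table whose name equals 1 of 10 listed symbols, with only symbols that match exactly 1 row kept. PIWIL1, TDRD1, TDRD5, TDRD7, TDRD9, TDRD15, MAEL, GTSF1 and MOV10L1 met that rule, so 9 of 23873 genes were taken, and PIWIL2 was not analysed here. All 9 had a mean abundance of at least 1 TPM and entered the test.

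The libraries fall into 2 groups of 3. Somatic differentiated PGCs are the fraction that had attached to the dish, enriched by aspirating the suspended cells and grown for 2 to 3 further weeks. Undifferentiated PGCs are the cells growing in suspension. Both groups derive from PGCs taken from embryonic blood at Hamburger and Hamilton stage 16, and the labels give 1 medium for both, which holds FGF2 at 10 ng/mL, the ROCK inhibitor H1152 at 0.2 μM and the myosin inhibitor blebbistatin at 0.2 μM. No transgene, sex or genetic change is given, the attached cells were not sorted, and the labels do not tie a library number to a culture or line. The p-values therefore measure the spread between these libraries, which may be partly technical.

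PIWI proteins are Argonaute-family proteins that bind piRNAs, small RNAs which guide them to transposon transcripts in the germ line. Precursor RNAs are unwound and cut at the surface of mitochondria, loaded onto PIWI proteins and trimmed, and Tudor domain proteins gather the parts in germ granules by binding methylated arginines of PIWI proteins. In mice, loss of many of these genes releases transposons and stops the formation of sperm.

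The expected identities of the groups were checked first. The 11 germ cell markers, which include DDX4 and DAZL, summed to 1628 to 2311 TPM in somatic differentiated libraries and 6154 to 6841 TPM in undifferentiated libraries, and none was at 0 in either group. POU5F3 was the largest part of both sums. It measured 882, 1196 and 1082 TPM in somatic differentiated and 3737, 3148 and 3722 TPM in undifferentiated libraries. The 8 mesenchymal markers summed to 20565 to 28467 TPM in somatic differentiated libraries, against 1915 to 2501 TPM in undifferentiated libraries. Most of both sums was VIM, at 18878, 27262 and 24094 TPM in somatic differentiated and 1773, 1682 and 2172 TPM in undifferentiated libraries. All 8 had a log2 change above 0. For PDGFRA it was 1.08 with a limma adjusted p of 0.0837. Markers of other cell types were also summed. The 5 leukocyte genes summed to 9.10 to 16.6 TPM in somatic differentiated and 8.44 to 10.2 TPM in undifferentiated libraries. The globin genes HBA1 and HBE1 were at 0 in all 6 libraries, while HBBA measured 1.71, 1.73 and 1.77 TPM in somatic differentiated libraries and was listed at 0 in all 3 undifferentiated libraries. HBAD was above 0 only in somatic differentiated library 2, at 0.0839 TPM. The 5 endothelial markers summed to 24.9 to 98.3 TPM in somatic differentiated libraries and 10.3 to 18.7 TPM in undifferentiated libraries. All of them but VWF were above 0 in every library. CDH5 was higher in somatic differentiated libraries (log2 change 2.92, limma adjusted p 0.0112) and reached 91.0 TPM in library 2. KDR was lower (-1.16, limma adjusted p 0.0454). The 6 gonadal somatic markers summed to 22.9 to 55.0 TPM in somatic differentiated and 14.2 to 26.5 TPM in undifferentiated libraries. Among them SOX9 reached 52.1 TPM in somatic differentiated library 3 (log2 change 0.84, limma adjusted p 0.109). FOXL2 averaged 2.11 TPM in somatic differentiated and 0.181 TPM in undifferentiated libraries (1.38, limma adjusted p 0.0120). Of 5 markers of meiotic germ cells 3 were listed, at 2.48 to 3.26 TPM in sum in somatic differentiated and 2.91 to 4.71 TPM in undifferentiated libraries. The 5 listed erythroid genes summed to 1.94 to 2.46 TPM in somatic differentiated and 0.457 to 2.40 TPM in undifferentiated libraries. Between 12342 and 12993 genes reached 1 TPM per library, and TPM values keep no record of read number, so the depth was unknown.

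The piRNA pathway genes had lower mean TPM in somatic differentiated cells but were above 0 in every library. All 9 had a log2 change below 0, against 55.4% of all genes, from -1.62 for MAEL to -0.65 for TDRD7, with a median of -1.10. The median over all 12996 genes tested was -0.11. With limma on log2(TPM + 1) and Benjamini-Hochberg adjustment over all genes tested, 8 of the 9 had an adjusted p under 0.05, against 22.0% of genes that passed in this direction. Of these, 6 also had a log2 change of -1 or lower and are referred to as called, against 7.77% of all genes called lower. No member was called higher, against 13.2% of all genes. In 8 of the 9 the groups did not overlap, against 30.6% of genes with that pattern in this direction. The members were chosen with earlier results of these data known, so these shares are not a neutral background. Because of the added 1, log2 changes of genes with few TPM come out too small. In bulk libraries, fewer germ cells and less RNA per germ cell cannot be told apart.

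**Figure D1:**
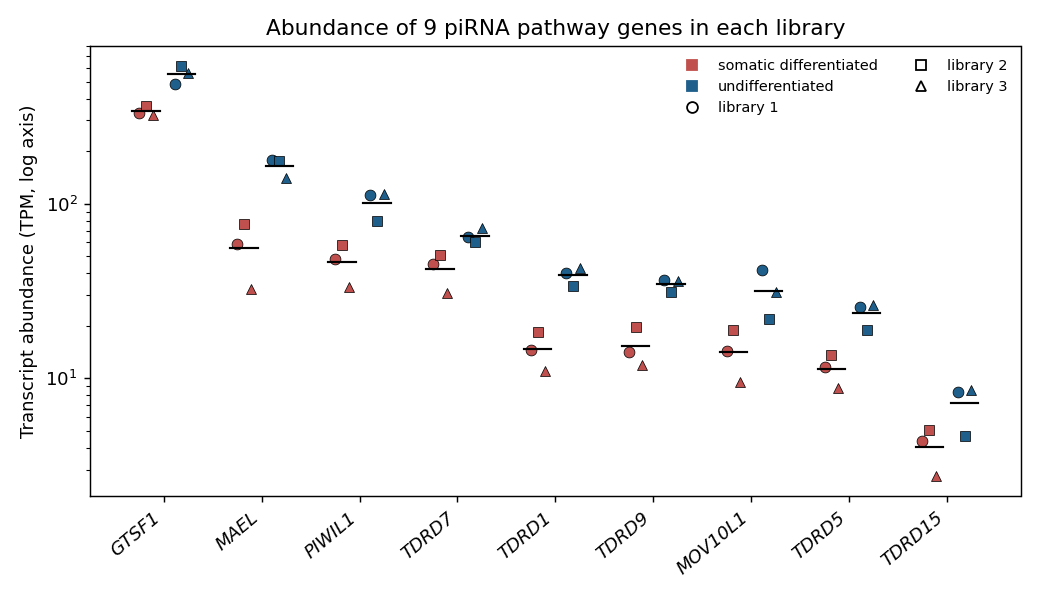
TPM of each piRNA pathway gene in each library on a log axis, with somatic differentiated libraries in red to the left of undifferentiated libraries in blue and a black bar at each group mean. The groups overlap only for TDRD15, and GTSF1 lies above every other gene in both groups.

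PIWIL1 (ENSGALG00000002645, chromosome 15, 3630416 to 3647097, minus strand) is the PIWI protein of the set, an endonuclease guided by piRNAs. PIWIL1 stood at 48.5, 57.7 and 33.5 TPM in somatic differentiated cells, and at 112, 79.2 and 113 TPM in undifferentiated cells, with each set of 3 values in the order of libraries 1, 2 and 3. The highest somatic differentiated value stayed below the lowest undifferentiated value, undifferentiated library 2. PIWIL1 kept 45.9% ± 12.0 (SD, n = 3) of its undifferentiated mean, a log2 change of -1.12 (SE 0.24, limma adjusted p 0.0105). Without somatic differentiated library 3 the change was -0.91, short of the minimum.

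GTSF1 (ENSGALG00000001109, chromosome 27, 3444203 to 3455470, plus strand) encodes a small zinc finger protein that assists PIWI proteins in cutting their targets, and it was the most abundant member. GTSF1 stood at 329, 364 and 323 TPM in somatic differentiated libraries and 483, 612 and 562 TPM in undifferentiated libraries. The groups did not overlap, and the 3 somatic differentiated values lay close together. GTSF1 kept 61.3% ± 4.01 (SD, n = 3), and its log2 change of -0.70 had a 95% interval of -0.98 to -0.41 that did not reach the minimum change (limma adjusted p 0.00525). It made up 58.3% to 69.6% of the summed TPM of the 9 genes in somatic differentiated libraries and 48.8% to 59.0% in undifferentiated libraries, ranges that overlap slightly. That sum was 543 ± 80.2 TPM in somatic differentiated and 1020 ± 26.1 TPM in undifferentiated libraries (SD, n = 3).

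MAEL (ENSGALG00000019211, chromosome 1, 93236812 to 93258497, minus strand), a germ granule protein needed for transposon silencing in mice and flies, was the member that fell most. MAEL stood at 59.1, 76.2 and 32.6 TPM in somatic differentiated libraries, against 178, 175 and 141 TPM in undifferentiated libraries. Library 3 was the lowest of its group on both sides, and the groups lay far apart. MAEL kept 33.9% ± 13.3 (SD, n = 3), a log2 change of -1.62 (SE 0.30, limma adjusted p 0.00641). Of all genes tested, 1.55% had a lower change.

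MOV10L1 (ENSGALG00000033664, chromosome 1, 20276230 to 20312309, plus strand) is the RNA helicase that feeds piRNA precursors into processing. MOV10L1 stood at 14.4, 18.8 and 9.50 TPM in somatic differentiated libraries and 41.5, 21.9 and 31.3 TPM in undifferentiated libraries. The gap between the groups was narrow, since undifferentiated library 2 lay only a little above somatic differentiated library 2. The log2 change was -1.10 (SE 0.31, limma adjusted p 0.0296). Its call was lost when certain single libraries were left out. The limma adjusted p was 0.0702 and 0.0792 without somatic differentiated library 1 or 3, with changes of -1.13 and -0.85. Without undifferentiated library 1 or 3 the limma adjusted p was 0.0901 and 0.0866, with changes of -0.88 and -1.08. A pseudocount of 5 gave -0.92.

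The 5 Tudor domain genes among the members had log2 changes between -1.37 and -0.65. TDRD1 (ENSGALG00000046180, chromosome 6, 28664613 to 28683067, plus strand), a scaffold that binds PIWI proteins in germ granules, measured 14.6, 18.3 and 11.0 TPM in somatic differentiated libraries and 40.1, 33.9 and 42.8 TPM in undifferentiated libraries. The groups were clearly apart, and the log2 change of -1.37 (SE 0.22, limma adjusted p 0.00378) was called under every alternative. TDRD9 (ENSGALG00000011565, chromosome 5, 50786850 to 50808516, plus strand), a Tudor protein with a helicase domain, measured 14.2, 19.7 and 12.0 TPM in somatic differentiated libraries and 36.5, 31.3 and 36.1 TPM in undifferentiated libraries. TDRD9 also showed no overlap, with a log2 change of -1.15 (SE 0.21, limma adjusted p 0.00619), or -0.98 with a pseudocount of 5. An unnamed protein-coding gene on the same strand, ENSGALG00000048226, overlaps the end of TDRD9 and measured 14.5, 16.0 and 9.73 TPM in somatic differentiated libraries, against 32.4, 41.8 and 32.6 TPM in undifferentiated libraries. Reads may be shared between these genes, which TPM values cannot separate.

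TDRD5 (ENSGALG00000033634, chromosome 8, 6501698 to 6514705, minus strand), a Tudor and LOTUS domain protein of germ granules, measured 11.6, 13.6 and 8.81 TPM in somatic differentiated libraries and 25.6, 18.9 and 26.4 TPM in undifferentiated libraries. The groups did not overlap. Its log2 change of -1.002 (SE 0.23, limma adjusted p 0.0130) lay at the minimum, and the call was lost without somatic differentiated library 3 (-0.85), undifferentiated library 1 (-0.94) or undifferentiated library 3 (-0.92). Median of ratios scaling (-0.91) and a pseudocount of 5 (-0.81) also ended it.

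The remaining Tudor genes were not called. TDRD7 (ENSGALG00000012350, chromosome Z, 71017085 to 71057636, minus strand), which also acts in the lens of the eye, measured 44.9, 51.0 and 30.9 TPM in somatic differentiated libraries and 64.5, 60.6 and 72.2 TPM in undifferentiated libraries. TDRD7 kept 64.2% ± 15.7 (SD, n = 3), the largest share among the 9 genes, and its groups did not overlap. Its log2 change was -0.65 with a limma adjusted p of 0.0406, which was 0.0765, 0.0666, 0.0920 and 0.131 without somatic differentiated library 1 or 3 or undifferentiated library 1 or 3. TDRD15 (ENSGALG00000016492, chromosome 3, 102274603 to 102281938, plus strand) was the least abundant member, at 4.37, 5.03 and 2.77 TPM in somatic differentiated libraries and 8.40, 4.67 and 8.58 TPM in undifferentiated libraries. Undifferentiated library 2 lay below somatic differentiated library 2, so the groups overlapped. The log2 change of TDRD15 was -0.69 (95% interval -1.40 to 0.03, limma adjusted p 0.109), and -0.94 with a limma adjusted p of 0.0281 without undifferentiated library 2.

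The order of abundance was nearly the same in both groups. Levels are compared between genes as TPM, which is corrected for transcript length. That comparison is rough, since the annotation release is not given and TDRD9 may share reads with an overlapping gene. GTSF1 came first, then MAEL, PIWIL1 and TDRD7, and TDRD15 came last. TDRD1, TDRD9, MOV10L1 and TDRD5 lay close together, and neighbours among them overlapped in both groups. In undifferentiated cells MAEL, PIWIL1 and TDRD7 were each separated from the next by non-overlapping values. In somatic differentiated cells MAEL, PIWIL1 and TDRD7 averaged 55.9 ± 22.0, 46.6 ± 12.2 and 42.2 ± 10.3 TPM (SD, n = 3) and neighbours among them overlapped.

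The 9 genes shared a pattern between the somatic differentiated libraries. Each was highest in library 2, intermediate in library 1 and lowest in library 3, an order found in 30.3% of all genes tested. The genes share the same 3 libraries and are not independent of each other. Of the 11 germ cell markers, 9 were highest in library 2, for which the share over all genes was not computed. Only 3 of the 11 followed the full order, against the same 30.3% of all genes, so most did not share it. Those 3 were DDX4, DAZL and DND1. The order was not particular to the members. Among the other piRNA pathway genes described below, DDX4, TDRD12, STK31, ASZ1, GPAT2, FKBP6, HSP90AA1, WDR77 and SETDB1 also followed it. TDRKH, PLD6, PNLDC1, HENMT1, EXD1 and MYBL1 did not. DDX4 stood at 144, 201 and 118 TPM in these 3 libraries, in the order 1 to 3. CDH5, an endothelial cadherin, measured 12.5, 91.0 and 31.9 TPM there, against 3.99, 2.85 and 3.92 TPM in undifferentiated libraries 1 to 3. Other endothelial markers differed from CDH5. PECAM1 (10.7, 6.05 and 2.77 TPM) and KDR (1.45, 1.09 and 1.92 TPM) were not highest in somatic differentiated library 2, and KDR was called lower. TEK and VWF stayed below 1 TPM in every library. The part of the remaining germ cells or of other cells in the pattern was not tested. In undifferentiated cells, 7 of the 9 members were lowest in library 2, as were 63.4% of all genes tested, while GTSF1 was highest there.

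**Figure D2:**
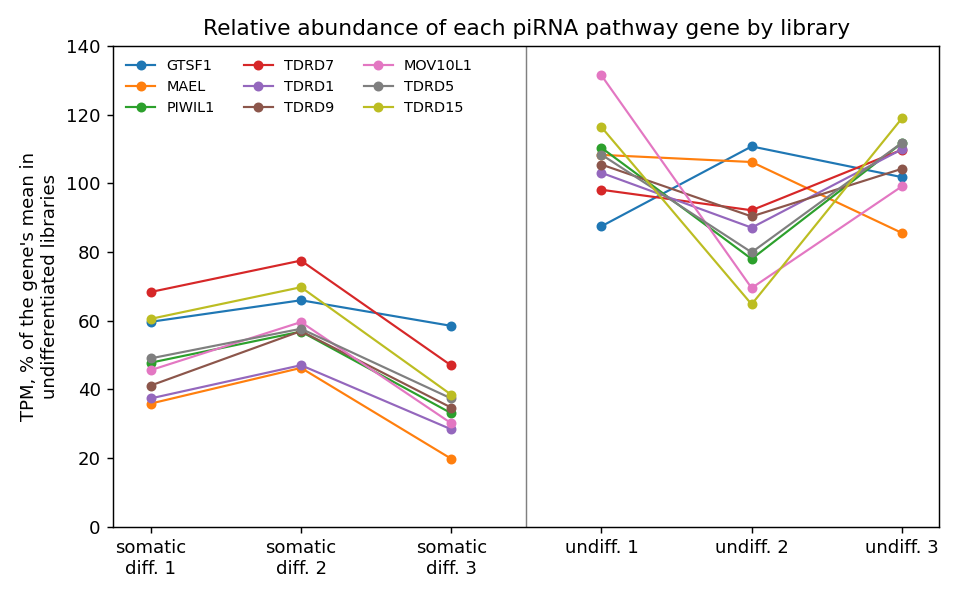
TPM of each piRNA pathway gene as a percentage of its mean over the 3 undifferentiated libraries, by library, with somatic differentiated libraries on the left. Lines join values of 1 gene within a group and carry no time order; all 9 genes peak in somatic differentiated library 2 and are lowest in library 3.

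The members were then set against DDX4, the germ cell RNA helicase of the germ granule, within each library. Because 1 TPM was added to both genes, the scaling of a library is removed only in part for genes with few TPM. DDX4 (chromosome Z, 16929403 to 16961191) kept 28.8% ± 7.91 (SD, n = 3) and had a log2 change of -1.82. The log2 ratio of member to DDX4 was higher in somatic differentiated cells for all 9 genes, with no overlap for 8. The same pattern was seen for 94.2% of all genes tested, so nothing is read from the members' count. The rise in the ratio was 1.17 for TDRD7, 1.13 for TDRD15, 1.12 for GTSF1 and 0.45 for TDRD1. With a pseudocount of 0.1 or 5 it was 1.16 or 1.19 for TDRD7 and 1.02 or 1.37 for TDRD15. For GTSF1 it was 1.13 or 1.10, and for TDRD1 0.40 or 0.62. The order of TDRD7, TDRD15 and GTSF1 therefore depends on the pseudocount. MAEL was the exception to the separation, with log2 ratios of -1.27, -1.39 and -1.83 in somatic differentiated libraries and -1.61, -1.44 and -2.04 in undifferentiated libraries, a difference of 0.20 (exact permutation test, two-sided, p = 0.5). For the other 8 the exact permutation p was 0.1, the smallest that 3 against 3 allows, and 0.113 after Benjamini-Hochberg adjustment over 9 genes.

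Ratios between members were examined for all 36 pairs, a comparison chosen after the values had been seen. In 18 of the 36 pairs the log2 ratio did not overlap between the groups, against 55.7% of all pairs of tested genes, so the count does not stand above the background. The log2 ratio of TDRD7 to MAEL was 0.96 higher in somatic differentiated libraries and that of TDRD15 to MAEL 0.93 higher, while that of MAEL to GTSF1 differed by -0.92. TDRD15 has few TPM, so its ratios depend on the pseudocount, and no order is read from these pairs. The ratio of TDRD1 to TDRD7 differed by -0.72 and that of TDRD1 to GTSF1 by -0.68. PIWIL1 and MOV10L1 differed little, by -0.02, and PIWIL1 and TDRD9 by 0.03, with overlapping groups. No pair could pass adjustment, since the smallest exact permutation p is 0.1.

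Other piRNA pathway genes were also lower in somatic differentiated cells. Of 28 listed symbols, 15 had a row and 13 were not analysed here. The 15 had a median log2 change of -1.27, all were below 0, and 11 were called lower and 0 higher, against 7.77% and 13.2% of all genes. DDX4 is 1 of the 11. This list was also chosen with earlier results of these data known, so the shares are not a neutral background for it.

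PNLDC1, TDRKH, PLD6, GPAT2 and ASZ1 were called lower. PNLDC1, the exonuclease that trims piRNA ends, measured 26.4, 34.1 and 27.1 TPM in somatic differentiated libraries and 98.0, 103 and 96.5 TPM in undifferentiated libraries, a log2 change of -1.74 (SE 0.14, limma adjusted p 0.000560). TDRKH, the mitochondrial Tudor protein that recruits PNLDC1, stood at 15.2, 19.0 and 15.9 TPM in somatic differentiated libraries and 60.2, 44.1 and 59.6 TPM in undifferentiated libraries, a log2 change of -1.64. Both were called under every alternative. PLD6, the mitochondrial endonuclease that cuts precursors, averaged 18.3 ± 3.25 TPM in somatic differentiated and 45.0 ± 1.54 TPM in undifferentiated libraries (-1.27). GPAT2, a mitochondrial acyltransferase that takes part in piRNA formation in mice, averaged 12.4 ± 1.12 TPM in somatic differentiated and 36.0 ± 3.24 TPM in undifferentiated libraries (-1.46). ASZ1, a mitochondrial scaffold, averaged 35.6 ± 8.64 TPM in somatic differentiated and 72.2 ± 5.54 TPM in undifferentiated libraries (-1.03). ASZ1 was not called without somatic differentiated library 3 (-0.82) or undifferentiated library 2 (-0.97), or with median of ratios scaling (-0.93), array weights (-0.88) or a pseudocount of 5 (-0.95).

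FKBP6, HSP90AA1, TDRD12, WDR77 and STK31 were also called lower. FKBP6, a co-chaperone of piRNA loading, averaged 27.3 ± 5.68 TPM in somatic differentiated and 81.2 ± 9.16 TPM in undifferentiated libraries (-1.55). HSP90AA1, its abundant partner with roles in all cells, averaged 3083 ± 710 TPM in somatic differentiated and 7834 ± 210 TPM in undifferentiated libraries (-1.37). TDRD12, a Tudor and helicase protein, averaged 8.49 ± 4.03 TPM in somatic differentiated and 26.9 ± 4.34 TPM in undifferentiated libraries (-1.63). WDR77, the partner of the arginine methyltransferase that marks PIWI proteins, averaged 96.9 ± 17.7 TPM in somatic differentiated and 220 ± 16.7 TPM in undifferentiated libraries (-1.19; SD, n = 3 throughout). STK31, a Tudor and kinase domain protein, averaged 70.7 ± 20.7 TPM in somatic differentiated and 144 ± 16.8 TPM in undifferentiated libraries (-1.05). The STK31 call was lost without somatic differentiated library 3 (-0.85) or undifferentiated library 3 (-0.98), and under median of ratios scaling (-0.95) or quantile normalization (-0.96).

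A further 4 genes of the list were not called. MYBL1, a transcription factor that switches on piRNA genes in mouse meiosis, averaged 10.5 ± 1.23 TPM in somatic differentiated and 19.1 ± 2.76 TPM in undifferentiated libraries, a log2 change of -0.80 (limma adjusted p 0.0154). SETDB1, a histone methyltransferase, averaged 34.1 ± 3.72 TPM in somatic differentiated and 51.1 ± 10.8 TPM in undifferentiated libraries (-0.55, limma adjusted p 0.0600). HENMT1, which methylates piRNA ends, averaged 3.03 ± 0.770 TPM in somatic differentiated and 4.67 ± 1.27 TPM in undifferentiated libraries (-0.49, limma adjusted p 0.182). EXD1, a piRNA biogenesis factor, averaged 6.11 ± 1.51 TPM in somatic differentiated and 8.31 ± 2.13 TPM in undifferentiated libraries (-0.39, limma adjusted p 0.280). For HENMT1 and EXD1 the groups overlapped.

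**Figure D3:**
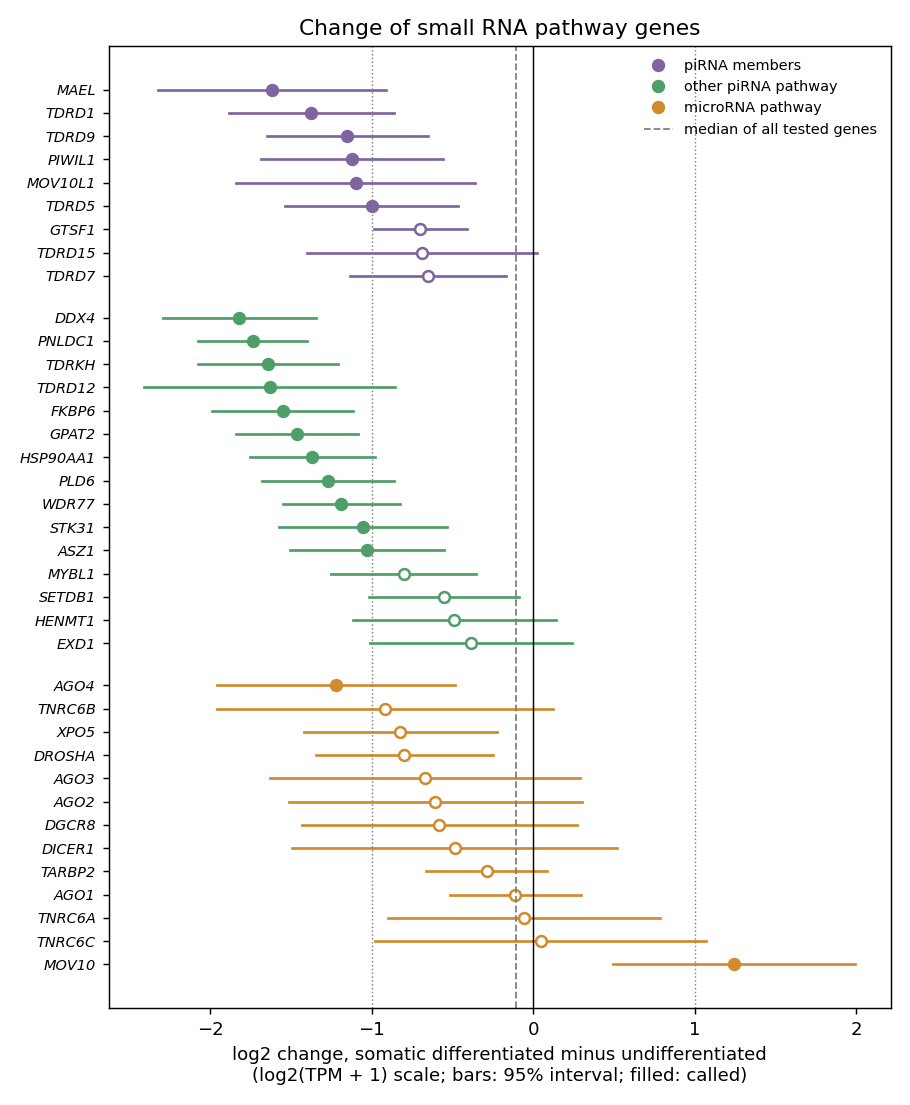
Log2 change (somatic differentiated minus undifferentiated, log2(TPM + 1) scale) of the 9 piRNA members, 15 other piRNA pathway genes and 13 microRNA pathway genes, with 95% intervals; filled points were called, dotted lines mark the minimum change and the dashed line the median of all genes tested. All piRNA pathway points lie below 0, with DDX4 and PNLDC1 lowest.

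The microRNA pathway, which uses the AGO branch of the Argonaute family in all tissues, gave a comparison whose outcome depended on which libraries were used. Of its 13 listed genes, 1 was called lower and 1 higher, against 7.77% and 13.2% of all genes, and the median log2 change was -0.58. Without undifferentiated library 2 the count called lower was 8 of 13, and that fit called 11.3% of all genes lower. The count of piRNA members called lower was 6 of 9 with and without that library. With each library left out in turn, the members' count ranged from 3 to 6 and the microRNA count from 0 to 8. These fits called 5.87% to 11.3% of all genes lower. In undifferentiated library 2, 9 of the 13 microRNA genes measured under 60% of the mean of undifferentiated libraries 1 and 3, as did 1 of the 9 members and 3505 of all 12996 genes. The difference between the pathways was not tested.

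AGO4 measured 30.9, 47.1 and 34.1 TPM in somatic differentiated libraries and 112, 53.8 and 109 TPM in undifferentiated libraries, a log2 change of -1.22 (limma adjusted p 0.0204). Leaving out somatic differentiated library 1 or 3 or undifferentiated library 1 or 3 ended that call (limma adjusted p 0.0661, 0.0640, 0.0633 and 0.0723). AGO1 averaged 20.4 ± 0.222 TPM in somatic differentiated and 22.3 ± 3.46 TPM in undifferentiated libraries (SD, n = 3; -0.11), a difference within the spread. AGO2 (-0.61) and AGO3 (-0.67) were not called, and without undifferentiated library 2 they were, at -1.02 and -1.16. The row named MOV10, a relative of MOV10L1, is listed as a pseudogene in the table, so its values may not be those of a coding gene. It was called higher, at 2.34, 1.61 and 4.48 TPM in somatic differentiated libraries and 0.420, 0.441 and 0.766 TPM in undifferentiated libraries, a log2 change of 1.24 (limma adjusted p 0.0204). MOV10 lay near the filter on low values, and its call was lost with a pseudocount of 5 (0.48), and without somatic differentiated library 3 (0.94) or undifferentiated library 1 or 3 (1.19 and 1.34, limma adjusted p 0.0614 and 0.0504).

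Tudor domain genes without a known part in piRNA production gave mixed values. LBR, a nuclear envelope receptor, averaged 88.4 ± 5.86 TPM in somatic differentiated and 86.0 ± 8.86 TPM in undifferentiated libraries. TDRD3, a translation and chromatin factor, averaged 50.2 ± 8.53 TPM in somatic differentiated and 52.9 ± 3.11 TPM in undifferentiated libraries (SD, n = 3). Both differed by less than the spread. AKAP1, a mitochondrial anchoring protein, averaged 128 ± 22.4 TPM in somatic differentiated and 202 ± 44.5 TPM in undifferentiated libraries (-0.65, limma adjusted p 0.0427), with overlapping groups, and was not called. PHF20, a chromatin reader, averaged 69.8 ± 15.6 TPM in somatic differentiated and 163 ± 7.85 TPM in undifferentiated libraries and was called lower (-1.24, limma adjusted p 0.00264).

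**Figure D4:**
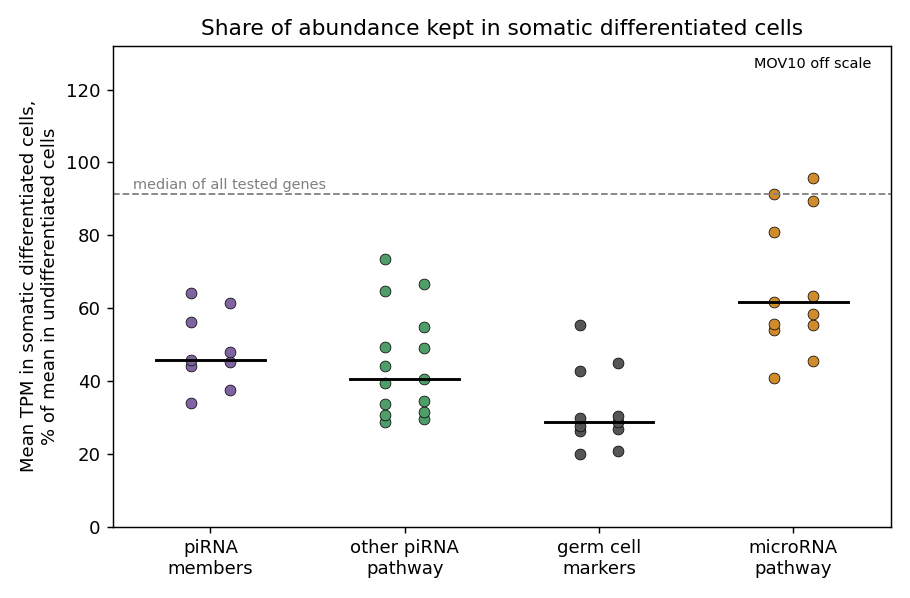
Mean TPM in somatic differentiated cells as a percentage of the mean in undifferentiated cells, 1 point per gene with a black bar at the median of each list, and the dashed line at the median of all genes tested (91.3%). The piRNA members have a median of 45.9%, the other piRNA pathway genes 40.6%, the germ cell markers 28.8% and the microRNA genes 61.7%; DDX4 belongs to 2 of the lists, and MOV10 lies above the axis at 518%.

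The genes whose profile over the 6 libraries was most like the mean profile of the 9 members were sought among 10408 other genes with a unique symbol, by Euclidean distance of log2(TPM + 1) after subtracting each gene's own mean. PGR, the progesterone receptor, was nearest at a distance of 0.15, with 5.65, 7.04 and 3.89 TPM in somatic differentiated libraries and 13.2, 11.5 and 12.1 TPM in undifferentiated libraries. GTF3C3, a subunit of a transcription factor for RNA polymerase III genes, and ELMOD1, a regulator of small GTPases, followed at 0.16 and 0.17. STK31 and the deubiquitinase USP28 also lay at 0.17. The ranking under another pseudocount is not given here, and PGR and ELMOD1 have few TPM. With a pseudocount of 5 the log2 change went from -1.05 to -0.72 for PGR and from -1.11 to -0.63 for ELMOD1. The list of nearest genes may therefore depend on the pseudocount. Members themselves lay between 0.17 (TDRD5) and 0.90 (MAEL) from the same mean. Each member is part of that mean, and the other genes named are the nearest of 10408. The distances of members and other genes are therefore not compared.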

How the data were processed

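Polyadenylated RNA was sequenced from 6 libraries. The authors deposited a table of TPM per gene, made with RSEM per the file name. Per the submitters' processing notes the tools included FastQC 0.11.9, Trimmomatic 0.39, Trim Galore 0.6.6, cutadapt 3.1, STAR 2.7.3a and RSEM 1.3.1, with genome build GRCg6a. Coordinates are those of the table. The sources used here give neither the annotation release nor the counting settings. Each column sums to 1000000, so a change in abundant genes moves all others. The 6 value columns were matched by the sample descriptions, and 0 were left unmapped.

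Genes averaging 1 TPM or more over the 6 libraries entered a limma fit (version 3.58.1, R 4.3.3) of log2(TPM + 1), with trended moderated variances, no covariates and two-sided Benjamini-Hochberg adjustment. Called means an adjusted p under 0.05 and a log2 change of at least 1 in size. Within-library ratios were differences of log2(TPM + 1) and were tested by exact permutation. The code was tested on simulated data. Tables were written with pandas 2.3.3 and numpy 2.4.6 under Python 3.11.15; matplotlib 3.10.9 drew the plots.

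The members and lists were chosen with earlier results of these data known. All members were named, all genes of the second piRNA list, AGO1 to AGO4 and the called microRNA genes, the Tudor genes, and the 5 genes nearest in profile. List symbols were matched by name, ignoring case, then by RefSeq synonyms. The retrovirus-related ERNI, ENS-1 and OVEX1 were not analysed here. Alternatives changed the pseudocount, filter, scaling, variance model, weights and minimum change, added the replicate number, used DAZL in place of DDX4, and left out each library.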

Additional observations from a re-analysis of the deposited data

How the results depend on the processing

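All 9 members stayed below 0 on the log2 scale under all 15 alternative fits. The count called lower, 6, was 3 with a pseudocount of 5 and 3 to 6 when a library was left out, with 3 without somatic differentiated library 3. The share of all genes called lower was 7.77% in the reported fit, 4.07% with a pseudocount of 5, 5.87% without somatic differentiated library 3, and 5.87% to 11.3% over the left-out libraries. MAEL and TDRD1 were called in every fit; PIWIL1, TDRD5, TDRD9 and MOV10L1 were not. The count with a limma adjusted p under 0.05 at any size of change ranged from 5 to 9. In the reported fit the count was 8, and 22.0% of all genes were lower at that threshold. The count of 5 came without undifferentiated library 3. Shares of all genes at that threshold in the other fits are not given here. Counts of members called higher were 0 throughout. The reported fit called 13.2% of all genes higher, and the 15 alternative fits called between 1190 and 1984 genes higher. Nothing is read from the 0. Of the other piRNA pathway genes, 9 to 11 were called lower with a library left out, and 0 higher. The fits with a library left out called between 1423 and 1696 genes higher, of 12914 to 13030 tested. The count of microRNA genes called lower was 2 with quantile normalization, 7 with array weights, 3 with no minimum change, and 0 to 8 with a library left out. The share of all genes called lower was 10.1% with quantile normalization, 10.7% with array weights and 22.0% with no minimum change. The count of microRNA genes called higher was 0 with a pseudocount of 5 or a mean of at least 5 TPM, and 0 to 1 with a library left out. The pseudocount of 5 called 1190 of 12996 genes higher, and the mean of at least 5 TPM 1426 of 10637. The number of members above DDX4's change with no overlap was 8 to 9 with a library left out and 8 with DAZL in its place. With all libraries and DDX4, 94.2% of all genes tested had that pattern. The shares of all genes under these alternatives are not given here, so nothing is read from the counts. The small change of TDRD3 turned sign, to 0.012 with median of ratios scaling, and ranged from -0.17 to 0.060 with a library left out. That of LBR was -0.039 with array weights and ranged from -0.037 to 0.11 with a library left out. Where no cause is named, the cause was not tested. With the replicate block, 5 members were called, 11 other piRNA pathway genes lower, and 1 microRNA gene in each direction. That fit called 7.64% of all genes lower and 1793 of 12996 genes higher. MOV10L1 had a limma adjusted p of 0.0511 in that fit. Same-numbered libraries deviated together with correlations of 0.19, 0.01 and 0.14 across genes. Somatic differentiated libraries 1 and 3 correlated best with the undifferentiated library of their own number, and library 2 with undifferentiated library 3 (0.11). Deviations from a mean of 3 libraries depend on each other, so these values cannot decide whether the numbers pair the libraries. No pairing was used in the reported fit. The ratio of PIWIL1 to PIWIL2 was not run. TPM keeps no depth, so no detection limit was computed.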
